A study of Mus musculus with 18 samples.

Results

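The genes described here are 10 members of the AP-1 and immediate early gene group: *Fos*, *Fosb*, *Fosl1* and *Fosl2* of the Fos family, *Jun*, *Junb* and *Jund* of the Jun family, the zinc finger factors *Egr1* and *Egr2*, and *Ier2*. They were taken by gene name from a count table of 54532 genes, and all 10 were found and passed the filter on low counts, which left 14317 genes. RNA came from CH310T1/2 cells, a mouse embryo fibroblast line that can be driven towards fat, bone or smooth muscle and that the labels call mesenchymal stem cells. The 18 libraries formed 6 groups of 3: WT cells, FOXS1 KO clone 1 and FOXS1 KO clone 2, each either uninduced (labelled control) or stimulated with TGF-β1 + DMII. FOXS1 is a forkhead transcription factor, and each KO line was grown from a single CRISPR-edited cell, so the effect of losing FOXS1 and the effect of having picked that cell cannot be told apart within 1 line. All lines were kept in DMEM with fetal bovine serum and grown to 2 days past confluence. Stimulated cells were given TGF-β1 (1 nM, 12 h) and afterwards, over 48 h, the adipogenic mixture DMII, which holds insulin, indomethacin, the glucocorticoid dexamethasone and the phosphodiesterase inhibitor 3-isobutyl-1-methylxanthine. No source used here names the medium of the uninduced cells at harvest. The study's general methods have cells starved of serum overnight ahead of TGF-β1, and its combined TGF-β1 and adipogenic protocol does not mention that step, so whether these cells were starved is not known here. No earlier time point was part of the design, so a level after 48 h of DMII is what each value shows.

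AP-1 is a dimer of basic leucine zipper proteins. Fos proteins cannot pair with each other and bind DNA only with another partner, mostly a Jun protein. Jun proteins can also pair among themselves, so the mixture of family members in a cell helps set which dimers can form. *Fos*, *Fosb*, *Jun*, *Junb*, *Egr1*, *Egr2* and *Ier2* are classical immediate early genes: their transcription starts within minutes of serum, growth factors or raised cyclic AMP and needs no new protein. *Fosl1* (Fra-1) and *Fosl2* (Fra-2) are usually induced later and stay on longer, and *Jund* is the most constant member in many cells. Dexamethasone activates the glucocorticoid receptor, which is known to restrain AP-1, and 3-isobutyl-1-methylxanthine keeps cyclic AMP high, which acts on many of these promoters through CREB.

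The sequences just upstream of the start sites are shown for the 5 members that had a window here and were called in at least 1 comparison below. In them the elements which growth factor, cyclic AMP and glucocorticoid signals use can be looked for. RefSeq windows (GRCm38.p6) were matched for 7 of the 10 genes. *Fosl1*, *Egr1* and *Ier2* were not among them. Each line gives the 150 bases before the start site, 5′ to 3′ on the gene's own strand, and capitals mark any base of an AP-1 site (TGANTCA), a cyclic AMP response element core (TGACG), a CArG box bound by SRF or an EGR site (GCGNGGGCG), read on either strand.
Fos: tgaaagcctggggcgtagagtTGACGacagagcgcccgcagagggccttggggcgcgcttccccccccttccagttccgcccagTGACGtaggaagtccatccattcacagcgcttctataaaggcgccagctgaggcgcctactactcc
Fosb: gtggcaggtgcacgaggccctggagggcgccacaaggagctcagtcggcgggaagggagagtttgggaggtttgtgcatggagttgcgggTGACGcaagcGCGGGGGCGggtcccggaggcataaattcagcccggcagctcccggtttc
Jun: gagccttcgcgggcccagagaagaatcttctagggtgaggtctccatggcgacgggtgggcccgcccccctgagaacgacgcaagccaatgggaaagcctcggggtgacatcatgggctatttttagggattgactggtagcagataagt
Junb: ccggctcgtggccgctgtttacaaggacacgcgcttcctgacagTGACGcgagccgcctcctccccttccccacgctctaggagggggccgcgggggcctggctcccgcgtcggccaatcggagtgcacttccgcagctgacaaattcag
Egr2: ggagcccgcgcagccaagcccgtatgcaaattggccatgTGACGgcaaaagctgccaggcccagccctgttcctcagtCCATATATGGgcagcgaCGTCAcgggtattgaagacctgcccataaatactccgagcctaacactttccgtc

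These windows lie at chr12:85473740-85473889 (plus strand, *Fos*), chr7:19310046-19310195 (minus strand, *Fosb*), chr4:95052223-95052372 (minus strand, *Jun*), chr8:84978749-84978898 (minus strand, *Junb*) and chr10:67537719-67537868 (plus strand, *Egr2*). *Egr2* has 5 RefSeq start sites, and the one shown is the first of a cluster of 3. The cyclic AMP response element core stood 129 and 66 bases upstream of the *Fos* start, 60 bases upstream in *Fosb*, 106 bases upstream in *Junb* and at 111 and, on the other strand, 55 bases upstream in *Egr2*. Of all 32851 RefSeq windows of this length, 13.3% held that core. The *Egr2* window also held a CArG box, which 0.916% of all windows held, and the *Fosb* window an EGR site, which 3.81% of all windows held. The *Fosl2* window held an EGR site 79 bases upstream of its start as well. Neither an AP-1 site (4.24% of all windows) nor a palindromic glucocorticoid response element (0.00609% of all windows) was in any member's window, and the full palindromic form of the cyclic AMP response element (1.36% of all windows) was in none. The SMAD element CAGAC (27.7% of all windows) was in 1 of the *Egr2* windows not shown. The *Jun* window held none of the patterns searched. It does hold the stretch tgacatca, a variant close to these patterns, and such variants were not searched in any window. Such matches describe letters within 150 bases and say nothing of elements farther away.

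The genes lie on 8 chromosomes (GRCm38). *Ier2* (chr8:84661331-84662852, 1 exon), *Junb* (chr8:84974484-84978718) and *Jund* (chr8:70698949-70700616, 1 exon) share chromosome 8, with 311.6 kb between *Ier2* and *Junb*. *Jun* (chr4:95049034-95052222) also consists of 1 exon. The deposited table does not say whether strand was used in counting, and 4 members share exonic bases with a gene on the opposite strand in GENCODE M21: *Fosl1* with *Ccdc85b* (57.2% of its exonic bases), *Jund* with *Gm11175* (52.6%), *Junb* with *Prdx2* (7.52%) and *Jun* with *Junos* (7.28%). *Gm11175* had 0 counts in all 18 libraries. A count of 0 can still arise where up to about 3 counts were to be expected in a library. As the way of counting is not known, these 0 counts do not show whether reads in the shared bases were left out of the *Jund* counts.

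Levels are given in CPM, gene counts scaled to a common library total after trimmed-mean (TMM) normalization. Total counts ran from 15576685 to 42005596 per library, with a median of 20.2 M. All 9 fibroblast markers were detected, with a summed level of 40400 to 105000 CPM, while summed epithelial, endothelial and leukocyte markers stayed between 0 and 7.92 CPM. The fibroblast marker *Thy1* was near 0 in clone 2, at means of 0.62 CPM uninduced and 0.34 CPM stimulated. Its means were 59.65 and 49 CPM in WT and 184.4 and 161.1 CPM in clone 1. Summed adipocyte markers reached 30.5 to 43.0 CPM in stimulated clone 1 (1 of 5 at 0), against 0.293 to 1.22 CPM in stimulated WT cells (3 of 5 at 0) and 2.71 to 4.64 CPM in stimulated clone 2 (1 of 5 at 0). *Foxs1* RNA was higher in the 12 libraries labelled FOXS1 KO (21.1 to 56.8 CPM) than in the 6 WT libraries (1.64 to 3.25 CPM), so the level of its RNA gives no check of the knockout here, and every direction between genotypes rests on the labels. The study checked its clones by sequencing genomic DNA at the locus and by western blot for FOXS1 protein, both of which are outside these files. Clone 1 and clone 2 below mean the libraries labelled FOXS1 KO clone 1 and FOXS1 KO clone 2. In stimulated cells replicate 2 was the highest library of its group for all 10 genes in the line labelled clone 1 and for 8 of 10 in WT. In uninduced WT cells replicate 3 was the highest for 7 of 10 and replicate 1 the lowest for 7. Replicate 2 of uninduced clone 1 was the highest for 7. How often each library was the highest over all genes was not computed. Calls that depend on any of these libraries are named beside the results.

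A gene was called changed when edgeR's quasi-likelihood test, adjusted by Benjamini-Hochberg over all 14317 genes, gave an adjusted p below 0.05 and the fold change exceeded 2. RPKM is CPM per kilobase of gene. Fold changes are on the log2 scale with their standard error (SE). These are bulk samples, so fewer cells of a type and less RNA per cell cannot be told apart.

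The first question was how each line answered the TGF-β1 + DMII stimulus. *Fos* and *Fosb* were lower after stimulation in every line, *Fosl1* and *Junb* were higher in every line, and *Egr1* was lower in WT and higher in clone 2. In WT cells 2 of the 10 genes were called, both lower (*Fos* and *Fosb*), where 19.9% of all genes tested were called in either direction and 13.6% were called lower. In the line labelled FOXS1 KO clone 1 the calls were *Fosb* (lower) and *Fosl1* and *Egr2* (higher), 3 of 10, beside 16.7% of all genes. In clone 2 they were *Fos* and *Fosb* (lower) and *Fosl1*, *Junb*, *Egr1* and *Egr2* (higher), 6 of 10, beside 17.7% of all genes. The median log2 change of the 10 genes was -0.33 in WT, -0.05 in clone 1 and 0.48 in clone 2, where the median over all genes tested was -0.04, -0.02 and -0.02. With the p threshold alone, 9 of 10 passed in each line, beside 60.7%, 54.5% and 55.8% of all genes in WT, clone 1 and clone 2. The plot of levels by library shows the values behind these calls.

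**Figure D1:**
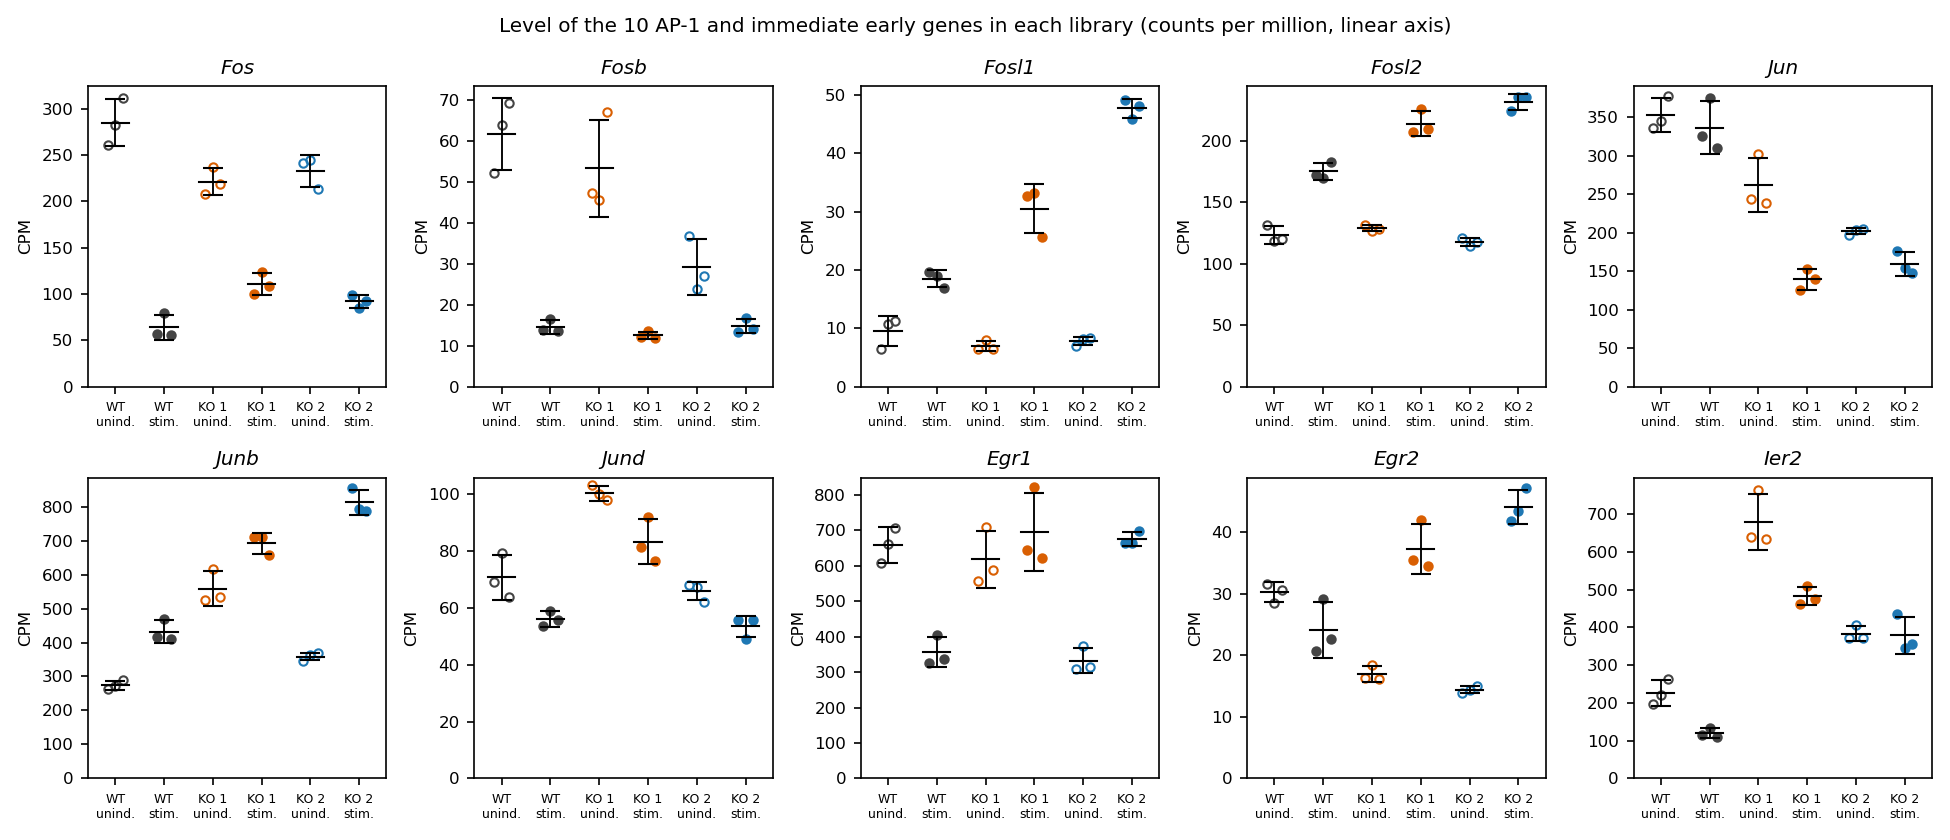
Level of each of the 10 genes in each of the 18 libraries, in CPM on a linear axis from 0. Open circles are uninduced and filled circles stimulated libraries of WT (grey), FOXS1 KO clone 1 (orange) and FOXS1 KO clone 2 (blue), and bars give the mean ± SD of 3. *Fos* sits between 207.9 and 311.4 CPM in all uninduced libraries and between 56.0 and 123.6 CPM in all stimulated ones, while *Egr1* is at 606.8 to 708.1 CPM in uninduced and 326.6 to 405.3 CPM in stimulated WT libraries and at 622.2 to 823.4 CPM in the stimulated clones.

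*Fos*, which encodes the archetypal partner of Jun, stood at 261, 282 and 311 CPM in the 3 uninduced WT libraries and at 56.8, 79.6 and 56.0 CPM after stimulation. In clone 1 it went from 208, 237 and 219 CPM to 100.5, 124 and 109 CPM. In clone 2 the values were 241, 245 and 213 CPM without and 99.5, 85.1 and 92.1 CPM with stimulation. Every stimulated library was thus below every uninduced library, in all 3 lines. *Fos* fell in WT by 2.15 on the log2 scale (SE 0.13, adjusted p = 1.55e-09, edgeR) and in clone 2 by 1.34 (SE 0.13, adjusted p = 3.54e-07, edgeR). In clone 1 the log2 change was -0.99 (SE 0.12, adjusted p = 7.63e-06, edgeR), just short of the 2-fold limit, and it passed that limit when uninduced clone 1 replicate 1 (-1.03) or 3 (just past the limit) or stimulated clone 1 replicate 2 (-1.06) was left out. Among stimulated libraries those of WT, from 56.0 to 79.6 CPM, were below all 6 libraries of the clones.

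*Fosb*, the close relative of *Fos* that is also known for a long-lived truncated isoform, fell in all 3 lines. The uninduced WT libraries held 52.1, 63.8 and 69.2 CPM and the stimulated ones 13.8, 16.6 and 13.5 CPM. Clone 1 gave 47.2, 45.7 and 66.9 CPM before and 12.1, 13.5 and 11.9 CPM after stimulation. Clone 2 began lower, at 36.8, 23.7 and 27.0 CPM, and ended at 13.5, 16.7 and 14.2 CPM. The stimulated libraries of the 3 lines overlapped, as did uninduced WT and clone 1, while all 3 uninduced libraries of clone 2 were below all 6 uninduced libraries of the other lines. The log2 changes were -2.07 (SE 0.18, adjusted p = 1.75e-08) in WT, -2.09 (SE 0.18, adjusted p = 2.56e-08) in clone 1 and -1.001 (SE 0.18, adjusted p = 0.000165) in clone 2 by edgeR's test. The last value lies at the 2-fold limit. It dropped below that limit with DESeq2 (-0.99), with only the 2 groups of clone 2 in the fit (-0.99), with a filter of 1 CPM in 3 libraries (-0.997) and without clone 2 uninduced replicate 1 (-0.78) or stimulated replicate 1 (-0.92) or 3 (-0.96).

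*Fosl1*, which encodes Fra-1, was the member with the steepest rise. WT libraries held 6.52, 10.7 and 11.2 CPM uninduced and 19.7, 18.9 and 17.0 CPM stimulated. In clone 1 the values were 6.51, 7.99 and 6.52 CPM against 32.6, 33.2 and 25.7 CPM. Clone 2 went from 7.01, 8.10 and 8.29 CPM to 49.1, 45.9 and 48.1 CPM. The stimulated groups stood in the order WT, clone 1, clone 2 with no overlap between them, whereas the uninduced libraries of the 3 lines overlapped. *Fosl1* rose in clone 1 by 2.12 (SE 0.14, adjusted p = 4.28e-13) and in clone 2 by 2.63 (SE 0.14, adjusted p = 1.49e-15) on the log2 scale in edgeR's test. In WT the log2 change was 0.95 (SE 0.14, adjusted p = 1.36e-06, edgeR), under the 2-fold limit, and it was above it without uninduced WT replicate 2 (1.03) or 3 (1.10) or stimulated WT replicate 3 (1.02). Its antisense neighbour *Ccdc85b* had group means of 25.95 to 32.2 CPM, with log2 responses of -0.17, 0.02 and 0.07 in WT, clone 1 and clone 2, none past an adjusted p of 0.05 in edgeR's test.

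*Fosl2*, which encodes Fra-2, moved the same way with smaller steps. Its uninduced libraries held 114.7 to 131.6 CPM over all 3 lines, and stimulated libraries 170.2 to 183 CPM in WT, 207.3 to 225.6 CPM in clone 1 and 224.3 to 235.8 CPM in clone 2. No stimulated library overlapped an uninduced one. Its log2 responses of 0.51 (SE 0.05) in WT, 0.73 (SE 0.05) in clone 1 and 0.98 (SE 0.05) in clone 2 were past the p threshold (adjusted p from 1.83e-16 to 5.12e-10, edgeR) and short of 2-fold. Without stimulated clone 2 replicate 1 the value in that line was 1.01 and passed.

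Within the Jun family the 3 genes behaved differently from each other. *Jun*, the founding member, gave 337, 345 and 378 CPM in uninduced and 325, 376 and 310 CPM in stimulated WT libraries, which overlapped (log2 change -0.07, SE 0.10, adjusted p = 0.562, edgeR). Clone 1 gave 244, 303 and 239 CPM without and 126, 153 and 141 CPM with stimulation. In clone 2 the libraries held 197, 204 and 205 CPM and then 177, 155 and 147 CPM. Both clones were lower after stimulation without overlap, yet neither log2 change passed the 2-fold limit: -0.91 (SE 0.10, adjusted p = 8.08e-07) in clone 1 and -0.34 (SE 0.10, adjusted p = 0.00833) in clone 2, by edgeR's test.

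*Junb*, whose product often opposes c-Jun, was higher after stimulation in every line. WT libraries held 263, 272 and 288 CPM uninduced and 415, 470 and 411 CPM stimulated. In clone 1 the values were 525, 617 and 534 CPM and then 710, 710 and 657 CPM. Clone 2 rose from 346, 362 and 368 CPM to 856, 793 and 788 CPM. No line had overlapping groups, and stimulated clone 2 was above every other library. The rise in clone 2 was called, at 1.18 (SE 0.06, adjusted p = 5.21e-16, edgeR) on the log2 scale. The log2 changes in WT (0.66, SE 0.06) and clone 1 (0.31, SE 0.06) had adjusted p of 1.67e-10 and 5.14e-05 in edgeR's test and did not reach 2-fold.

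*Jund* had no call: its log2 changes of -0.33, -0.27 and -0.30 in WT, clone 1 and clone 2 (SE 0.07 to 0.08) were small and alike in sign, with stimulated below uninduced libraries and no overlap within a line. Over all libraries it ranged from 49.1 to 103.2 CPM. The highest values were those of uninduced clone 1, at 98.07 to 103.2 CPM.

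The EGR genes, whose zinc finger products bind GC-rich sites and are among the fastest mitogen-induced factors, answered differently in the 3 lines. *Egr1* held 607, 662 and 708 CPM in uninduced and 327, 405 and 338 CPM in stimulated WT libraries. In clone 1 it stood at 556, 711 and 588 CPM and then at 644, 823 and 622 CPM, which overlapped. Clone 2 began at 310, 373 and 315 CPM, below all uninduced WT libraries, and ended at 666, 664 and 698 CPM. The WT libraries were thus all lower after stimulation and the clone 2 libraries all higher. *Egr1* rose in clone 2 by 1.02 on the log2 scale (SE 0.13, adjusted p = 1.13e-05, edgeR), a call that was lost without uninduced clone 2 replicate 1 (0.97) or 3 (0.98) and with every gene with 1 count kept (0.997). Its log2 change was -0.89 in WT (SE 0.13, adjusted p = 3.79e-05, edgeR) and 0.17 in clone 1 (SE 0.13, adjusted p = 0.277, edgeR).

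*Egr2*, known for its part in Schwann cell and adipocyte differentiation, followed a related pattern at lower levels. Uninduced WT libraries held 31.6, 28.6 and 30.7 CPM and stimulated ones 20.6, 29.2 and 22.6 CPM, with some overlap. Clone 1 went from 16.2, 18.5 and 16.1 CPM to 35.5, 42.0 and 34.5 CPM. Clone 2 went from 13.9, 14.3 and 15.01 CPM to 41.8, 43.4 and 47.3 CPM. Both clones thus started below all uninduced WT libraries and ended above all WT libraries. *Egr2* rose in clone 1 by 1.14 (SE 0.11, adjusted p = 1.89e-10) and in clone 2 by 1.62 (SE 0.11, adjusted p = 7.37e-14) on the log2 scale in edgeR's test, and its log2 change in WT was -0.32 (SE 0.10, adjusted p = 0.00845, edgeR).

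*Ier2*, an immediate early gene whose small nuclear product has been tied to cell motility, was set apart by genotype more than by treatment. It held 196, 220 and 264 CPM in uninduced and 114, 134 and 109 CPM in stimulated WT libraries. In clone 1 it stood at 641, 764 and 633 CPM and then at 463, 510 and 475 CPM. In clone 2 the values were 371, 407 and 372 CPM and then 436, 345 and 356 CPM, which overlapped. Every library of both clones was above every WT library. None of its 3 responses was called: the log2 change was -0.93 in WT (SE 0.12, adjusted p = 1.62e-05, edgeR), which passed 2-fold without uninduced replicate 1 (-1.02) or stimulated replicate 2 (-1.01), -0.49 in clone 1 (SE 0.12, adjusted p = 0.00314, edgeR) and -0.02 in clone 2 (SE 0.12, adjusted p = 0.93, edgeR).

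**Figure D2:**
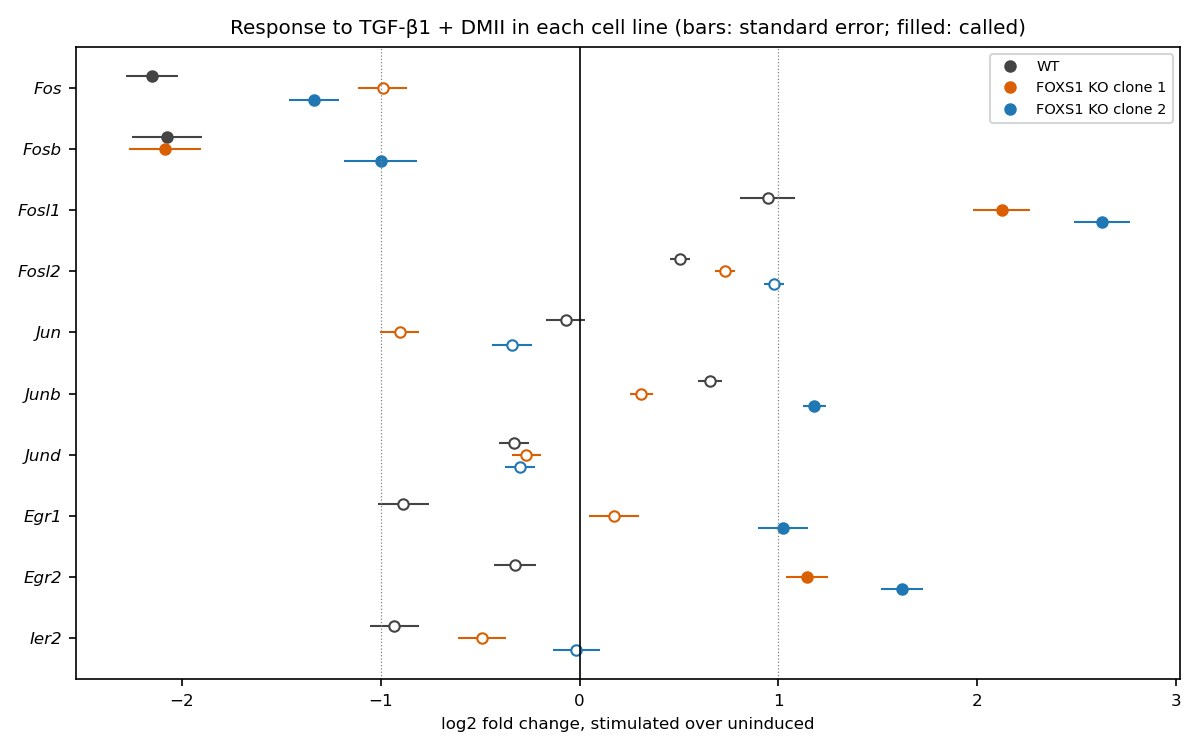
Log2 fold change of stimulated over uninduced cells (horizontal axis) for each gene in WT (grey), FOXS1 KO clone 1 (orange) and FOXS1 KO clone 2 (blue), with standard errors. Filled points passed an adjusted p of 0.05 and 2-fold, and dotted lines mark 2-fold. *Fos* and *Fosb* lie left of 0 and *Fosl1*, *Fosl2* and *Junb* right of 0 in all 3 lines, while *Egr1* is at -0.89 in WT and at 1.02 in clone 2.

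The second question was whether the lines answered differently, which was tested as the difference between 2 responses. Against WT, clone 1 gave 4 of 10 calls, all towards a higher response (*Fos*, *Fosl1*, *Egr1* and *Egr2*), beside 8.81% of all genes called in either direction and 5.34% called higher. Clone 2 gave 4 of 10, again all higher (*Fosb*, *Fosl1*, *Egr1* and *Egr2*), beside 7.85% of all genes in either direction and 4.89% called higher. *Fosl1*, *Egr1* and *Egr2* were in both sets. The 2 comparisons share the WT libraries, and the share of all genes called in both was not computed, so this overlap has no background to be read against. With the p threshold alone 7 and 8 of 10 passed, beside 31.6% and 31.2% of all genes. The response of *Egr1* differed by 1.06 (SE 0.18, adjusted p = 0.000432) in clone 1 and by 1.91 (SE 0.18, adjusted p = 1.91e-06) in clone 2 on the log2 scale, by edgeR. For *Egr2* the differences were 1.47 (SE 0.15, adjusted p = 3.25e-09) and 1.95 (SE 0.15, adjusted p = 1.01e-11), and for *Fosl1* 1.18 (SE 0.20, adjusted p = 3.42e-05) and 1.68 (SE 0.20, adjusted p = 8.87e-08), from the same edgeR fit. The *Fos* response was less negative in clone 1 than in WT, by 1.16 (SE 0.18, adjusted p = 0.000126, edgeR), whereas in clone 2 the difference of 0.81 (SE 0.18, adjusted p = 0.00258, edgeR) did not reach 2-fold. *Fosb* fell less in clone 2 than in WT, by 1.07 (SE 0.25, adjusted p = 0.00345, edgeR), and the uninduced level of clone 2 was the low one. The *Ier2* response differed by 0.92 (SE 0.17, adjusted p = 0.000967, edgeR) between clone 2 and WT and passed 2-fold without stimulated WT replicate 2 (1.01) or uninduced WT replicate 1 (1.005). The *Egr1* call in clone 1 was lost without stimulated clone 1 replicate 2 (0.92), uninduced clone 1 replicate 1 (0.99) or uninduced WT replicate 3 (just under the limit). The *Fosb* call in clone 2 was lost without uninduced WT replicate 3 (0.97), uninduced clone 2 replicate 2 (0.94) or stimulated clone 2 replicate 2 (0.98).

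Between the clones the difference in response was called for 1 of 10 genes, *Fosb* (-1.08, SE 0.26, adjusted p = 0.00741, edgeR), beside 3.02% of all genes, while 6 passed the p threshold alone, beside 14.5%. That call was lost without uninduced clone 1 replicate 3 (-0.89), uninduced clone 2 replicate 2 (-0.95) or stimulated clone 2 replicate 2 (-0.99). *Junb* responded more in clone 2 than in clone 1 without reaching 2-fold (-0.87, SE 0.08, adjusted p = 8.16e-09, edgeR).

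The third question was how each line labelled FOXS1 KO differed from WT under the same treatment. In uninduced cells clone 1 gave 2 of 10 calls, *Junb* and *Ier2*, both higher, beside 15.1% of all genes in either direction and 6.32% called higher. Uninduced clone 2 also gave 2 of 10, *Fosb* and *Egr2*, both lower, beside 15.1% of all genes in either direction and 9.56% called lower. No gene was in both sets. *Ier2* (0.76) and *Junb* (0.39) in clone 2 and *Egr2* (-0.84) in clone 1 passed the p threshold in the same direction, short of 2-fold. *Fosb* in clone 1 did not pass it (-0.215, adjusted p = 0.283, edgeR). The share of all genes called in both clones was not computed. With the p threshold alone 7 of 10 passed in clone 1 and 6 of 10 in clone 2, beside 53.5% and 53.2% of all genes. After stimulation *Jun* was lower and *Ier2* higher in clone 1 (2 of 10, beside 19% of all genes), and *Jun* was lower and *Fosl1* and *Ier2* higher in clone 2 (3 of 10, beside 16.9% of all genes). The median log2 difference of the 10 genes was -0.15 and -0.30 in uninduced clone 1 and 2, and 0.65 and 0.70 in the stimulated clones, with a median over all genes tested between -0.02 and -0.01. By the p threshold alone 9 of 10 differed in stimulated clone 1 (58.9% of all genes), 8 of them higher (28.4%), and 8 of 10 in stimulated clone 2 (56% of all genes), 7 of them higher (27.7%).

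**Figure D3:**
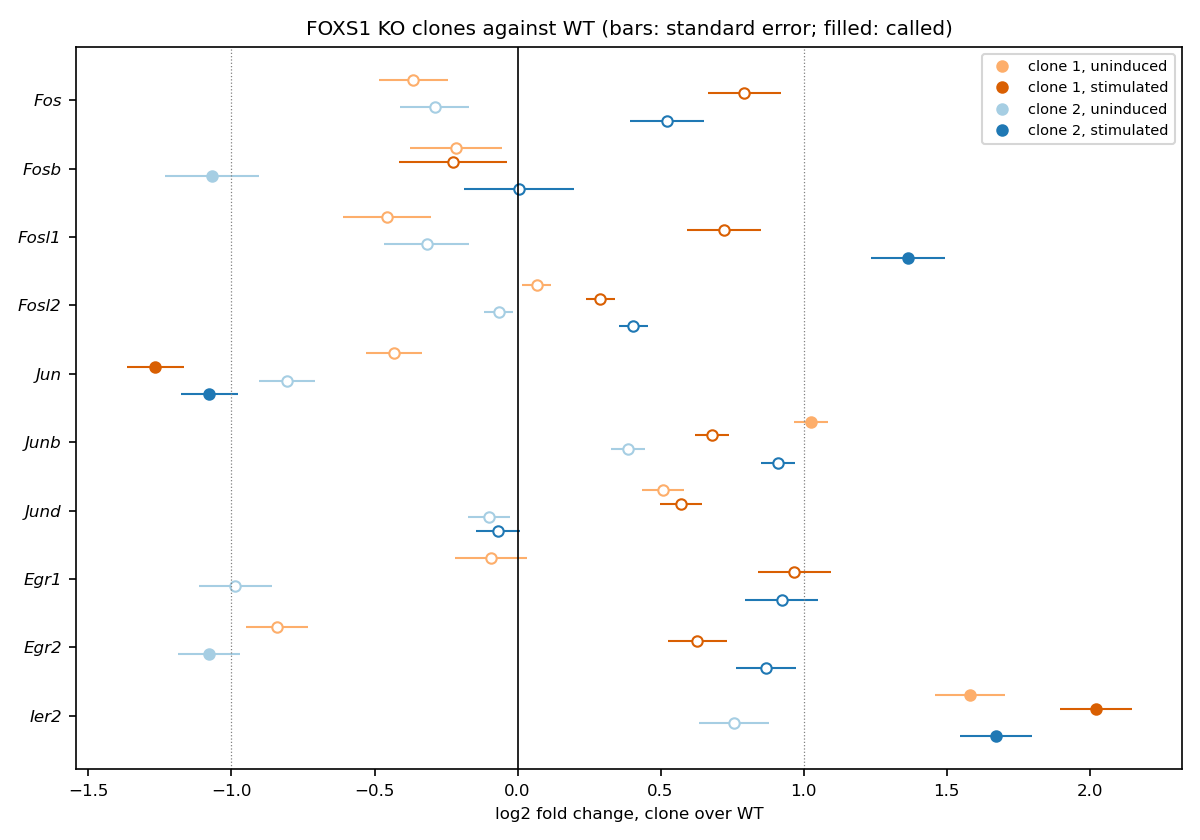
Log2 fold change of each FOXS1 KO clone over WT (horizontal axis) in uninduced (pale) and stimulated (dark) cells, for clone 1 (orange) and clone 2 (blue), with standard errors. Filled points passed an adjusted p of 0.05 and 2-fold, and dotted lines mark 2-fold. *Ier2* lies to the right in all 4 comparisons (0.76 to 2.02) and *Jun* to the left in all 4 (-1.27 to -0.43), while *Egr2* is left of 0 in uninduced and right of 0 in stimulated cells.

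*Ier2* had the largest log2 difference from WT of the 10 genes in all comparisons but uninduced clone 2, with the values by library given above. The log2 difference from WT was 1.58 (SE 0.12, adjusted p = 7.53e-08) in uninduced and 2.02 (SE 0.13, adjusted p = 4.63e-09) in stimulated clone 1 by edgeR. In clone 2 it was 0.76 (SE 0.12, adjusted p = 0.00012, edgeR), short of 2-fold, in uninduced cells and 1.67 (SE 0.13, adjusted p = 4.25e-08, edgeR) in stimulated ones. The 3 calls held without any single library. Its 20 nearest genes that averaged 5 CPM or more had median log2 differences of 0.30 and 0.23 in uninduced and stimulated clone 1 and of 0.37 and 0.19 in clone 2, beside 0.11 to 0.19 for chromosome 8 as a whole. The part of the neighbourhood in the *Ier2* values was not tested.

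*Jun* was lower in both clones under both treatments, with no overlap with WT. In stimulated cells the log2 difference was -1.27 (SE 0.10, adjusted p = 1.03e-08) in clone 1 and -1.08 (SE 0.10, adjusted p = 9.29e-08) in clone 2 by edgeR, the latter at -0.99 without stimulated WT replicate 2. In uninduced cells it was -0.43 (SE 0.10, adjusted p = 0.0014) and -0.81 (SE 0.10, adjusted p = 2.9e-06), short of 2-fold in edgeR's test. The 20 nearest expressed genes, up to 5.91 Mb away, also had lower medians: -0.49 and -0.45 in uninduced and stimulated clone 1 and -0.66 and -0.64 in clone 2, beside -0.27 to -0.22 for all of chromosome 4. Whether those medians have a part in the *Jun* difference was not tested. *Junos*, the antisense gene that overlaps *Jun*, was called lower in clone 1 (-1.45, SE 0.49, uninduced and -1.74, SE 0.55, stimulated), at group means of 0.23 to 1.48 CPM against 139.7 to 353.2 CPM for *Jun*.

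*Junb* was called higher in uninduced clone 1 only just past 2-fold, at 1.03 (SE 0.06, adjusted p = 2.17e-14, edgeR), and the call was lost without uninduced WT replicate 1 (0.995) or uninduced clone 1 replicate 2 (0.95). In the other comparisons its log2 difference was 0.39 (SE 0.06, uninduced clone 2), 0.68 (SE 0.06, stimulated clone 1) and 0.91 (SE 0.06, stimulated clone 2), each past the p threshold and short of 2-fold. Its 20 nearest expressed genes had medians between 0 and 0.26.

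*Egr2* changed side between treatments. In uninduced cells the log2 difference from WT was -0.84 (SE 0.11, adjusted p = 1.24e-07) in clone 1 and -1.08 (SE 0.11, adjusted p = 8.78e-10) in clone 2, and in stimulated cells 0.63 (SE 0.10, adjusted p = 5.27e-06) and 0.87 (SE 0.10, adjusted p = 2.58e-08), all by edgeR, of which only uninduced clone 2 reached 2-fold. Without stimulated WT replicate 2 the last value was 1.03 and passed. The 20 nearest expressed genes had medians of -0.47 uninduced and -0.16 stimulated in clone 1 (chromosome 10 as a whole -0.41 and -0.43) and of -0.07 and 0.28 in clone 2 (chromosome 10 as a whole 0.07 and 0.05). Their part in the *Egr2* values was not tested. *Egr1* stood at -0.09 (SE 0.13, adjusted p = 0.571, edgeR) in uninduced clone 1 and at -0.99 (SE 0.13, adjusted p = 1.8e-05, edgeR) in uninduced clone 2. In stimulated cells its log2 difference was 0.97 (SE 0.13, adjusted p = 1.76e-05) in clone 1 and 0.92 (SE 0.13, adjusted p = 3.06e-05) in clone 2, by edgeR. Both lay close to the limit and passed it, at 1.07 and 1.03, without stimulated WT replicate 2, as did clone 1 without its stimulated replicate 1 (1.02) or 3 (1.05). The uninduced clone 2 value passed it without uninduced clone 2 replicate 2 (-1.07) or uninduced WT replicate 1 (-1.04).

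Of the Fos family, *Fosl1* was called higher in stimulated clone 2 (1.37, SE 0.13, adjusted p = 4.56e-10, edgeR) and stood at 0.72 (SE 0.13, adjusted p = 2.29e-05, edgeR) in stimulated clone 1. *Fosb* was called lower in uninduced clone 2 (-1.07, SE 0.17, adjusted p = 3.41e-05, edgeR), which was lost without uninduced WT replicate 3 (-0.97) or uninduced clone 2 replicate 2 (-0.93). After stimulation its log2 differences of -0.23 (SE 0.19) and 0.01 (SE 0.19) left the lines overlapping. The *Fos* log2 difference from WT was -0.37 (SE 0.12, adjusted p = 0.02) and -0.29 (SE 0.12, adjusted p = 0.0566) in uninduced and 0.79 (SE 0.13, adjusted p = 8.56e-05) and 0.52 (SE 0.13, adjusted p = 0.00328) in stimulated clones 1 and 2 by edgeR's test, none of them called. In stimulated clone 1 the adipocyte markers given above were also higher, and their part in that line's values was not tested.

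Compared directly, the clones differed by more than 2-fold in none of the 10 genes. In edgeR's test 0 were called among uninduced cells (8.67% of all genes) and 0 among stimulated cells (9.98% of all genes), while 7 and 4 passed the p threshold alone, beside 42.2% and 45.4% of all genes, and DESeq2 gave 0 calls as well. All 7 in uninduced cells were higher in clone 1 (21% of all genes), led by *Egr1* (0.89, SE 0.13), *Fosb* (0.85, SE 0.17) and *Ier2* (0.83, SE 0.12). Without uninduced clone 2 replicate 1 the *Fosb* difference was 1.07 and would be called. In stimulated cells *Jund* (0.64, SE 0.08) and *Ier2* (0.35, SE 0.12) were higher and *Fosl1* (-0.65, SE 0.13) and *Junb* (-0.23, SE 0.06) lower in clone 1.

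Per gene length, the makeup of both families shifted with stimulation, and that of the Jun family also with genotype. In the Fos family only some shares differed between genotypes without overlap. *Fos* made up 81.1% ± 0.40 (SD, n = 3) of the summed Fos family RPKM in uninduced WT cells and 46.2% ± 4.92 in stimulated ones, as the family sum went from 149.3 ± 12.9 to 58.5 ± 5.75 RPKM. In clone 1 its share went from 78.3% ± 1.58 to 52.9% ± 2.40, and in clone 2 from 82.2% ± 1.33 to 41.9% ± 1.88. The ranges of uninduced and stimulated libraries did not overlap in any line. Among stimulated cells the *Fos* share of WT (43.4% to 51.9%) overlapped that of clone 1 (50.2% to 54.6%) and that of clone 2 (40.1% to 43.9%). *Fosl1* took 3.69% ± 0.78 of the family in uninduced and 18.6% ± 1.89 in stimulated WT cells, and 29.9% ± 0.09 in stimulated clone 2. *Fosl2* took 31.1% ± 3.82 of the family in stimulated WT cells, the highest mean of the 6 groups. The Fos family sum after stimulation was higher in the clones, at 89.2 ± 7.13 and 93.5 ± 3.17 RPKM, than in WT, with no library in common range.

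The Jun family was led by *Junb* in all 6 groups, with the smallest lead over *Jun* in uninduced WT cells (43.8% ± 0.66 against 40.6% ± 1.26 of the family RPKM). In CPM, without gene length, that order turned in uninduced WT cells, with 50.6% ± 1.12 for *Jun* and 39.3% ± 0.23 for *Junb*. In stimulated cells the share of *Junb* was 57.4% ± 0.31 in WT, 76.3% ± 1.40 in clone 1 and 81.2% ± 0.41 in clone 2. *Jun* was at 32.3% ± 0.77 in stimulated WT cells and at 11.1% ± 1.02 and 11.5% ± 0.53 in the stimulated clones. Summed Jun family RPKM was 272 ± 10.4 and 327 ± 26.5 in WT, 385 ± 32.9 and 395 ± 18.2 in clone 1 and 259 ± 4.85 and 435 ± 22.2 in clone 2, each uninduced and then stimulated. With 3 libraries against 3 an exact permutation test of a share cannot go below p = 0.1, so only ranges are given.

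**Figure D4:**
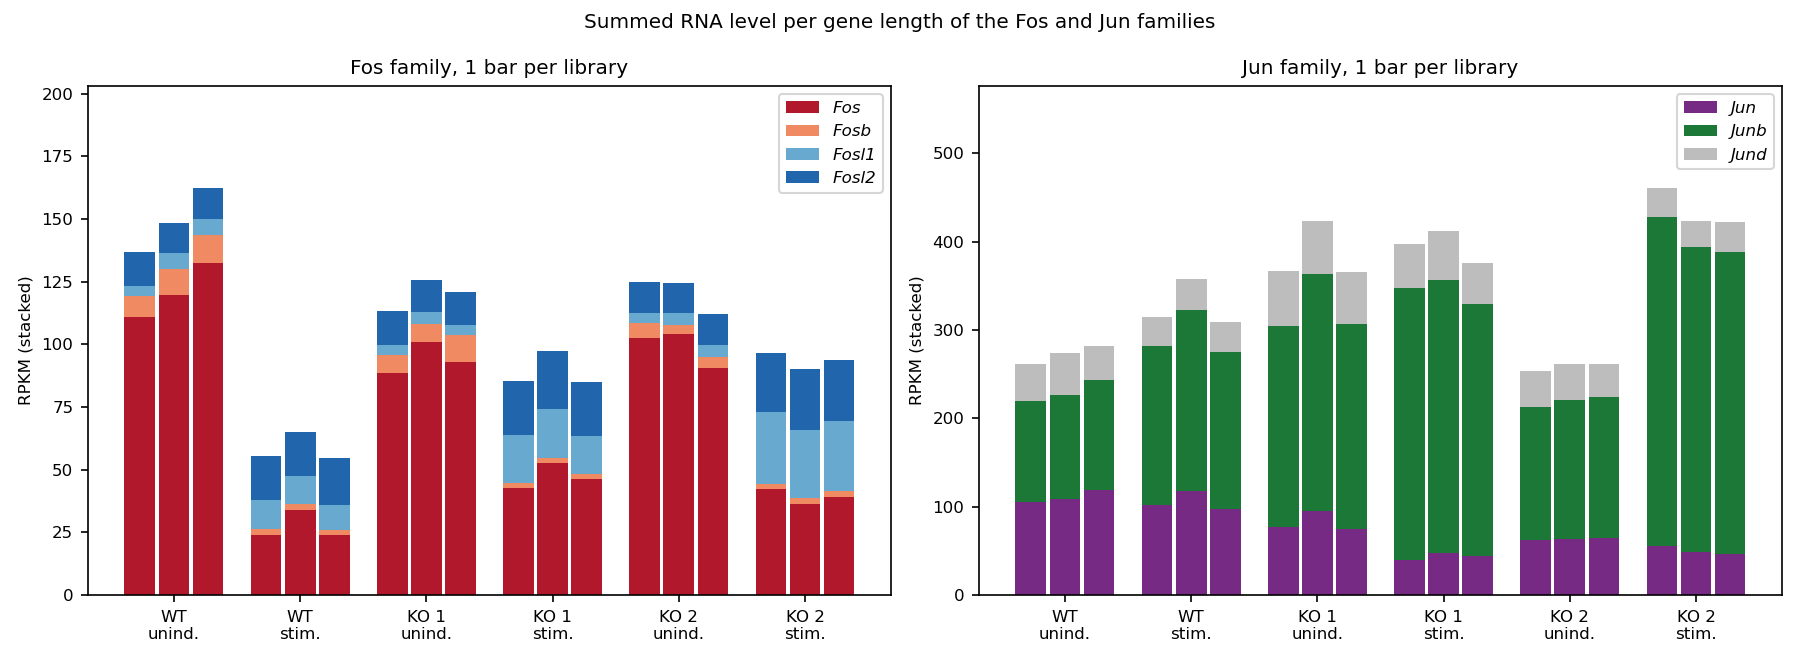
Stacked RPKM of the Fos family (left) and Jun family (right) in each library, 3 bars per group, on a linear axis from 0. Colours mark the genes. In stimulated cells the *Fos* segment shrinks in all 3 lines while those of *Fosl1* and *Fosl2* grow, and the *Junb* segment makes up 75.0% to 81.6% of the Jun family in the stimulated clones against 57.2% to 57.8% in WT.

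Across the 18 libraries some members ran together. As Pearson's r of log2 CPM, *Fosl1* and *Fosl2* gave 0.95, *Fos* and *Fosb* 0.86, *Fosl1* and *Egr2* 0.83 and *Egr1* and *Egr2* 0.67, while *Fos* and *Fosl2* gave -0.81 and *Jun* and *Junb* -0.71. The libraries fall into 6 groups that share treatment and line, so these values describe the groups. Among 10059 genes averaging 5 CPM or more, those most alike outside the group were *Sgk1*, *Osgep* and *Il4ra* for *Fosl1* (r = 0.98 for each), *Il6*, *Slc39a14* and *Ereg* for *Fosl2* (r = 0.99, 0.99 and 0.98), and *Rgma*, *Snn* and *Osgin2* for *Fos* (r = 0.97 for each). For *Fosb* they were *Klf6*, *Pgrmc1* and *Itga8* (r = 0.96, 0.95 and 0.95) and for *Junb* *Osmr*, *Bdnf* and *Hist1h1c* (r = 0.98, 0.97 and 0.96). *Jun* ran closest with a septin gene (ENSMUSG00000058013), *Gas2* and *Adamts5* (r = 0.98, 0.96 and 0.96). *Egr1* had the weakest companions, *F3*, *Atxn1* and *St3gal1* (r = 0.92, 0.89 and 0.87), and *Egr2* ran with *Zcchc24*, *Pi16* and *Arrdc3* (r = 0.96, 0.95 and 0.95). The closest to *Ier2* were *Ttc33*, *Sema3c* and *Caskin2* (r = 0.98 for each), and to *Jund* *Nckap1*, *Rab14* and *Mcur1* (r = 0.95, 0.95 and 0.94).

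Other immediate early genes were counted in the same way. Of 26, 25 were tested, and in WT 12 were called higher and 8 lower by stimulation, in clone 1 11 higher and 2 lower, and in clone 2 11 higher and 0 lower. Of all genes tested, 6.25% were called higher and 13.6% lower in WT, 5.95% and 10.7% in clone 1, and 6.46% and 11.2% in clone 2. The largest changes in WT were those of *Klf4* (-3.89, SE 0.10), a Krüppel-like factor, *Ctgf* (3.79, SE 0.15), a matrix-associated TGF-β target, and *Ptgs2* (2.93, SE 0.09), which encodes cyclooxygenase 2. In clone 1 they were *Nr4a3* (4.99, SE 0.23), an orphan nuclear receptor, *Sgk1* (4.21, SE 0.07), a glucocorticoid-induced kinase, and *Ctgf* (2.94, SE 0.16), and in clone 2 *Nr4a3* (4.84, SE 0.23), *Sgk1* (4.75, SE 0.07) and *Ctgf* (4.68, SE 0.16). The response differed from WT in 13 genes in clone 1 (9 higher) and in 11 in clone 2 (10 higher), beside 8.81% (5.34% higher) and 7.85% (4.89% higher) of all genes. *Sik1* (2.64, SE 0.11), *Nr4a3* (2.63, SE 0.32) and *Sgk1* (2.39, SE 0.09) differed most in clone 1, and *Arc* (3.68, SE 0.39), *Sgk1* (2.93, SE 0.09) and *Klf4* (2.90, SE 0.13) in clone 2. The median log2 response of the list was 0.84 in WT, 0.46 in clone 1 and 0.97 in clone 2. *Npas4*, the gene not tested, had 0 counts in 4 of the 6 groups and 1 count in each of the others.

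**Figure D5:**
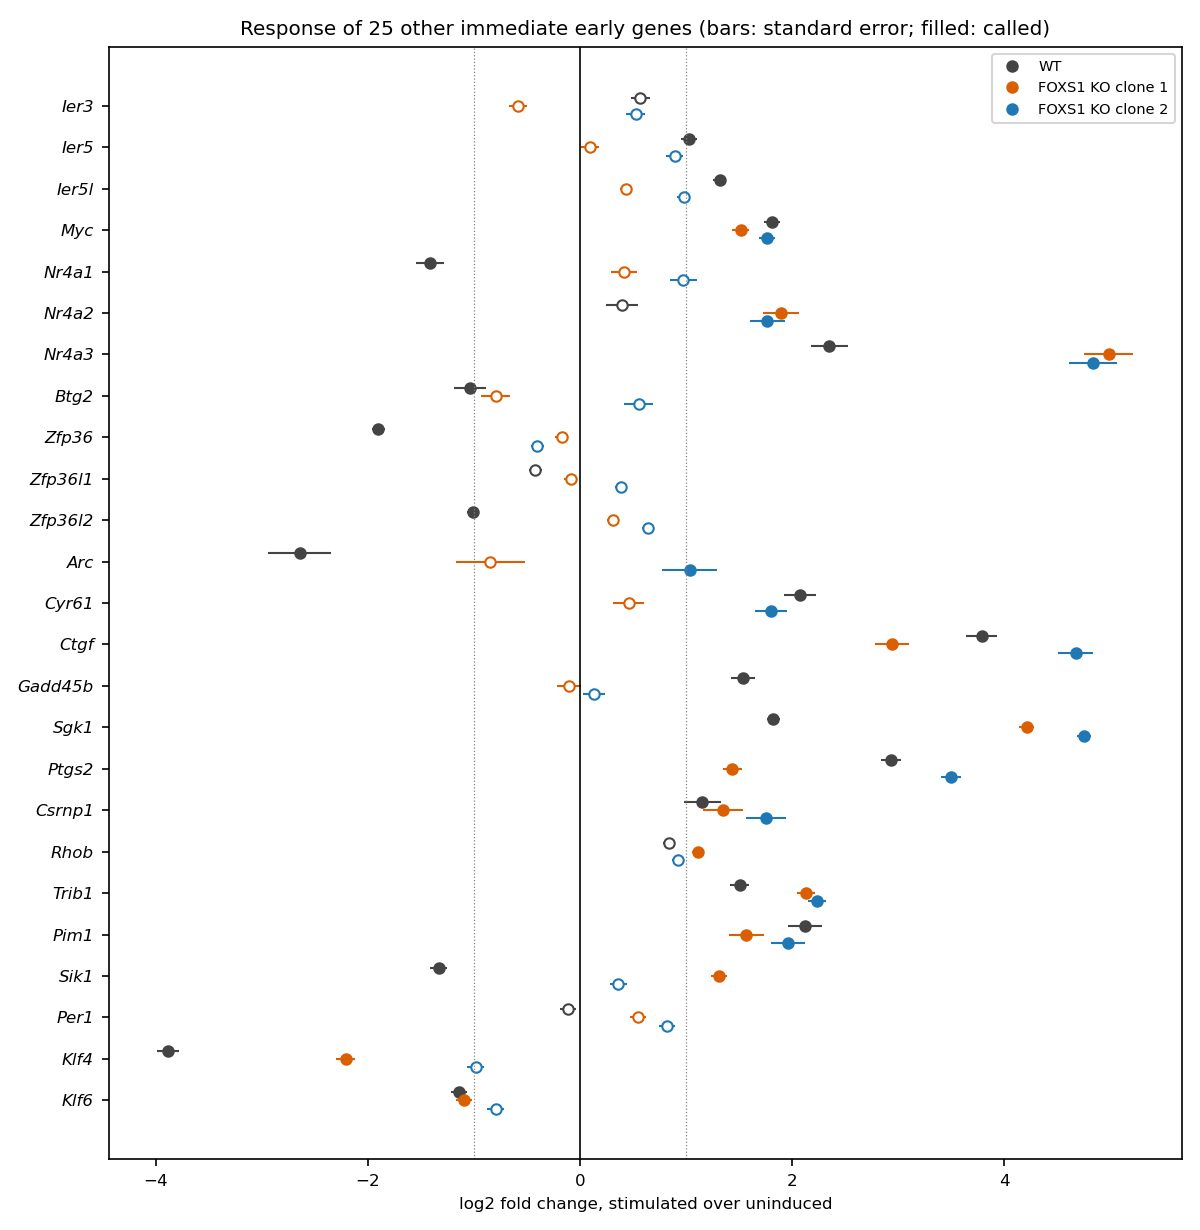
Log2 fold change of stimulated over uninduced cells (horizontal axis) for the 25 other immediate early genes tested, in WT (grey), FOXS1 KO clone 1 (orange) and FOXS1 KO clone 2 (blue), with standard errors. Filled points passed an adjusted p of 0.05 and 2-fold. *Klf4*, *Arc*, *Zfp36* and *Nr4a1* lie farther to the left in WT than in either clone, and *Nr4a3* and *Sgk1* farther to the right in both clones.

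In stimulated cells 19% of all genes were called against WT in clone 1 (9.42% higher) and 16.9% in clone 2 (7.95% higher). Of the 25 other immediate early genes, 7 were called higher and 4 lower in clone 1, and 8 higher and 1 lower in clone 2. They were led by *Sik1* (2.12, SE 0.08), *Ctgf* (-2.09, SE 0.13) and *Nr4a1* (2.04, SE 0.13) in clone 1 and by *Klf4* (2.71, SE 0.10), *Arc* (2.58, SE 0.30) and *Nr4a1* (2.21, SE 0.13) in clone 2. Among the other EGR genes and their co-repressors *Nab1* and *Nab2*, *Egr3* rose in both clones (1.22, SE 0.14, and 2.88, SE 0.15) and not in WT, and its response differed from WT by 1.82 (SE 0.20) and 3.48 (SE 0.21). *Egr4* fell in WT (-2.17, SE 0.71) from a mean of 1.68 to 0.37 CPM, and was the single call of the 4 genes there. Each of these calls comes from the same edgeR fit, with adjusted p below 0.05.

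Of 11 further basic leucine zipper genes, possible partners of Fos and Jun proteins, 8 were tested, and *Batf*, *Batf2* and *Batf3* had at most 2 counts in any group. Of all genes tested, 19.9%, 16.7% and 17.7% were called in the responses of WT, clone 1 and clone 2. In WT *Maff* rose (2.38, SE 0.14) and *Creb5* fell (-2.72, SE 0.30). In clone 1 *Maff* rose and *Creb5* (-2.99, SE 0.35), *Atf3* (-2.08, SE 0.43) and *Jdp2* (-1.20, SE 0.07) fell, and in clone 2 *Maff* rose (2.28, SE 0.13) and *Atf3* (-1.70, SE 0.37) and *Creb5* (-1.13, SE 0.35) fell.

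For the factors and kinases that relay signals to these promoters, the share of all genes called in a response was 19.9% in WT, 16.7% in clone 1 and 17.7% in clone 2. None of the 7 genes of SRF and its ternary complex and MRTF partners was called in the responses of the clones, and *Fhl2*, an SRF-associated LIM protein gene, was the single call in WT (1.39, SE 0.09). Of 6 genes of CREB and its coactivators, *Crem* was called in clone 2 (1.00, SE 0.17) and none in WT or clone 1. Of 11 MAP kinase cascade genes, *Mapk3*, which encodes ERK1, was called lower in WT (-1.06, SE 0.06) and none in either clone.

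Feedback inhibitors of MAP kinase signalling, some of which are often read as a record of ERK activity, did change. ERK activity itself was not measured. Of 13 genes for dual-specificity phosphatases, Sprouty and Spred proteins, 3 were higher and 3 lower after stimulation in WT, 6 higher and 1 lower in clone 1, and 7 higher and 1 lower in clone 2. Of all genes, 6.25%, 5.95% and 6.46% were called higher and 13.6%, 10.7% and 11.2% lower in the 3 lines. The largest changes were *Dusp2* (4.04, SE 0.24), *Dusp10* (-2.61, SE 0.11) and *Spry4* (2.04, SE 0.52) in WT. They were *Dusp2* (4.15, SE 0.39), *Dusp4* (3.26, SE 0.16) and *Spry4* (3.21, SE 0.68) in clone 1 and *Dusp2* (6.24, SE 0.29), *Dusp6* (3.30, SE 0.10) and *Spry1* (3.10, SE 0.14) in clone 2. Before stimulation 7 of the 13 were lower and 1 higher in clone 1 than in WT, beside 8.73% of all genes called lower, with *Dusp2* (-2.66, SE 0.47), *Spry4* (-2.12, SE 0.73) and *Dusp10* (-1.98, SE 0.10) in front. In uninduced clone 2 the count was 6 lower and 1 higher, beside 9.56% of all genes called lower, led by *Spred3* (-2.85, SE 0.41), *Dusp2* (-2.26, SE 0.40) and *Dusp10* (-2.25, SE 0.10). *Dusp2* and *Spry4* are low genes, with uninduced means of 0.21 to 1.37 and 0.14 to 0.60 CPM.

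Genes known as AP-1 targets rose in part. Of 14, 12 were tested, and 7 were higher and 2 lower after stimulation in WT, 7 higher and 3 lower in clone 1, and 8 higher and 2 lower in clone 2, beside 6.25% and 13.6%, 5.95% and 10.7%, and 6.46% and 11.2% of all genes called higher and lower. *Timp1*, a metalloproteinase inhibitor gene, rose by 4.13 (SE 0.07) in WT, and *Il6* by 3.69 (SE 0.18) in clone 1 and 5.03 (SE 0.18) in clone 2, while *Mmp9* fell in clone 1 (-4.29, SE 0.47). The other lines moved the same way by group mean. *Timp1* went from 102.9 to 577.8 CPM in clone 1 and from 112.9 to 1046 CPM in clone 2. *Il6* went from 1.68 to 10.95 CPM in WT. *Mmp9* went from 3.04 to 0.55 CPM in WT and from 2.99 to 0.21 CPM in clone 2. *Mmp3* went from 1 count in total to 37 in WT, and *Areg* from 1 count in total to 154 in clone 2, so no fold is given for either. After stimulation *Plau*, which encodes urokinase, was lower than in WT in both clones (-4.02, SE 0.22, and -3.20, SE 0.21) and *Ccl2* higher (1.85, SE 0.12, and 2.07, SE 0.12). In clone 1 *Mmp3* was higher too (2.55, SE 0.49), and *Areg* was higher in clone 2 (1.97, SE 0.53). *Mmp10* had 0 counts throughout, and *Mmp13* had 0 counts in stimulated WT cells and in uninduced clone 2.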

How the data were processed

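Poly(A) RNA of 18 libraries was sequenced as paired ends. According to the study's methods and the submitters' processing notes, the authors aligned reads with HISAT2 to the mouse genome (mm10, GRCm38). The deposited values are raw counts per gene, and no source used here gives the counting program or its use of strand. Members and gene lists were chosen with earlier results of these data known. From the counts, edgeR 4.0.16 (limma 3.58.1, R 4.3.3) was run with TMM factors, filterByExpr (minimum count 10), 1 mean per group over all 18 libraries and robust quasi-likelihood tests. The 12 comparisons were adjusted by Benjamini-Hochberg over all 14317 genes tested. SE is the log2 fold change divided by the root of F. Likeness was Pearson's r of log2 CPM (prior count 2). Named from each other list were the 3 called genes with the largest fold change and any gene at 0 in a group; overlapping genes were added afterwards. For 1 gene that this rule names, the values are not reported here. Labels do not say whether replicates were separate cultures, so p-values measure the spread between these libraries, which may be technical. Replicates differed beyond counting noise (chi-square per degree of freedom 3.13 to 14.6). In simulated data 80.9% of genes changed by 1.5 (log2) were recovered for stimulated clone 1 against WT and 74% for the response difference of clone 1 from WT (13777 genes). DESeq2 1.42.0 and Python 3.11 served alternatives and figures.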

Additional observations from a re-analysis of the deposited data

Results flagged for a closer look

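The response to stimulation differed between lines for 5 of the 10 genes by edgeR's test of the difference itself. Of all genes tested, 8.81% (clone 1 against WT), 7.85% (clone 2 against WT) and 3.02% (between clones) were called. The share of all genes called in at least 1 of these comparisons was not computed. Against WT, the log2 response of clone 1 was higher by 1.16 for *Fos*, 1.18 for *Fosl1*, 1.06 for *Egr1* and 1.47 for *Egr2*. Against WT, the response of clone 2 was higher by 1.07 for *Fosb*, 1.68 for *Fosl1*, 1.91 for *Egr1* and 1.95 for *Egr2*. Between the clones, *Fosb* differed by -1.08 (clone 1 minus clone 2). For *Egr1* all 3 stimulated libraries were below all 3 uninduced ones in WT and above them in clone 2. Both *Fosb* calls and the *Egr1* call in clone 1 were lost when 1 library was left out, at lowest 0.94 for *Fosb* in clone 2, -0.89 for *Fosb* between clones and 0.92 for *Egr1*.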

How the results depend on the processing

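The 12 counts of called members kept their size (within 1.5 times) with DESeq2, DESeq2 size factors, both other filters and only the groups compared in the fit. Replicate numbers did not pair the libraries (r of deviations -0.041 to 0.05 over 45 pairs), and with a replicate block all 120 values for single members kept their call. Dropping the fold limit gave 9, 9, 7, 6, 9, 8, 7, 4, 7, 8 and 6 members for the responses of WT and clone 1, each clone against WT uninduced and then stimulated, the clones against each other uninduced and stimulated, and the response differences of clone 1 and of clone 2 from WT and between clones. Testing against the 2-fold limit itself (glmTreat) left 1 in uninduced clone 1, 0 in uninduced clone 2, 1 for the response difference of clone 1 from WT and 0 for that between clones, and 12 single calls were lost. Leaving out each library in turn gave 1 to 2 calls in uninduced clone 1, 1 to 3 in uninduced clone 2, 0 to 1 between uninduced clones and 0 to 1 for the response difference between clones. Without gene length the *Fos* share was 59.4%, 23.4%, 53.9%, 30.1%, 60.1% and 23.9% in WT, clone 1 and clone 2, each uninduced and stimulated, and that of *Junb* 39.3%, 52.4%, 60.7%, 57.2% and 79.3%, stimulated clone 1 having moved by less than 1 SD. With Spearman's rho 10 of the 30 most alike genes remained.

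Signs turned only in values near 0 that were not called. Without 1 library, *Jun* in the WT response ran from -0.14 to 0.006, *Ier2* in the clone 2 response from -0.115 to 0.059, *Fosb* in stimulated clone 2 against WT from -0.089 to 0.109, *Egr1* between stimulated clones from -0.095 to 0.13, and the response differences from WT of *Fosb* in clone 1 from -0.112 to 0.184 of *Jund* in clone 1 from -0.029 to 0.132 and of *Jund* in clone 2 from -0.064 to 0.096, with the *Jund* difference between clones from -0.047 to 0.103. With no filter beyond 1 count, *Fosb* in stimulated clone 2 was -0.021 and the *Jund* difference of clone 2 -0.039. The *Fosb* difference of clone 1 was 0.001 with DESeq2, 0.004 with its size factors and 0.002 with the 1 CPM filter. The cause of these shifts was not tested. With 3 libraries a group, 19 single calls were lost and 19 gained when 1 library was left out; those of named genes stand beside the results.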
